A study of Mus musculus with 12 samples.

Results

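The genes described here make, cross-link or cut the extracellular matrix. They comprise the collagen, laminin, ADAMTS, MMP, TIMP and lysyl oxidase genes, taken by symbol from the platform annotation, together with Fn1, Sparc, Nid1, Nid2, Dcn, Lum, Bgn and Postn. Of 18193 genes with a single symbol on the array, 101 belong to this set, and 70 of them were bright enough to be tested among 12136 tested genes. Expression was measured on 12 Affymetrix arrays of 3T3-L1 adipocytes, fat cells differentiated from a mouse embryonic fibroblast line. The groups were 5 µM berberine, a plant alkaloid, for 3 h, 6 h or 12 h, and the solvent DMSO, with 3 arrays each. All cells were at day 8 to 10 of differentiation and had spent 12 h with 0.2% albumin and no serum beforehand. The recorded length of induction was also the same for all 12 arrays. How long the DMSO cells were incubated is not in the labels, and all berberine groups share these 3 DMSO arrays, so berberine and time in culture cannot be told apart. Nor do the labels tell whether the arrays came from separate cultures. The p-values then measure only how far these samples differ, and that spread may be technical.

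Fat cells sit in a basement membrane of type IV collagen, laminins and nidogens, surrounded by fibrillar collagens decorated with small proteoglycans. Metalloproteinases of the MMP and ADAMTS families cut these proteins, and the tissue inhibitors (TIMPs) block them. A fibroblast line that turns into fat cells replaces much of its fibrillar matrix by basement membrane, and differentiated cultures commonly keep some cells that did not convert.

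After 12 h of berberine the matrix genes moved both ways. Among the proteases, Mmp11, Mmp3, Mmp2, Mmp14 and Adamts1 rose, while Adamts9, Adamts15, Adamts12 and Mmp19 fell. The inhibitors Timp1 and Timp2 rose and Timp4 fell. Of the basement membrane genes, Nid2 fell 1.53-fold, and neither Col4a1 (log2 change -0.02 ± 0.06, SE) nor Col4a2 (-0.13 ± 0.06) was called. Calls rest on limma's moderated test, with Benjamini-Hochberg adjustment over all 12136 genes and a threshold of 0.05 on the adjusted p. Log2 changes are berberine minus DMSO with limma's SE unless said otherwise.

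At 3 h, 1 of the 70 matrix genes was called, higher, against 1.90% of all tested genes, 1.09% higher and 0.816% lower. At 6 h, 16 (22.9%) were called, 6 higher and 10 lower, against 14.2% of all tested genes, 7.24% higher and 6.98% lower. At 12 h, 24 (34.3%) were called, 12 higher and 12 lower, against 28.2%, 13.7% higher and 14.6% lower. By the F test over the 3 contrasts with DMSO, 20 (28.6%) were called, against 25.1%. The shares at 12 h and in the F test were near those of all genes, and no test of the difference was made. All 3 berberine arrays lay on one side of all 3 DMSO arrays for 8 matrix genes at 3 h, 19 at 6 h and 26 at 12 h, against 19.0%, 29.9% and 39.4% of all genes. Calls with a change of at least 0.5 numbered 0 at 3 h, 3 at 6 h and 9 at 12 h, against 0.808%, 4.41% and 11.2% of all genes. An unadjusted p under 0.05 was found for 11 matrix genes at 3 h, 23 at 6 h and 30 at 12 h, against 13.6%, 26.6% and 38.0% of all genes. The median change of the matrix genes was 0.06, 0.03 and -0.01 at 3, 6 and 12 h, beside 0.02, 0.01 and -0.01 for all genes.

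In all, 26 matrix genes were called in at least 1 contrast with DMSO and 44 in none. Of these 26, 14 were called at both 6 h and 12 h in the same direction. Matching shares over all genes were not counted, and 28.2% of all genes were called at 12 h alone. Of the 31 genes that were not tested, 22 had no array at the detection threshold, a log2 signal of 5.77, and 9 had 1 or 2. They include Col2a1 of cartilage, Col10a1 of hypertrophic cartilage, Col4a3 and Col4a4 of specialised basement membranes, the laminin genes Lama1 and Lama3, and the proteases Mmp7, Mmp8, Mmp10 and Mmp12. For these no change was measurable on this array.

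**Figure D1:**
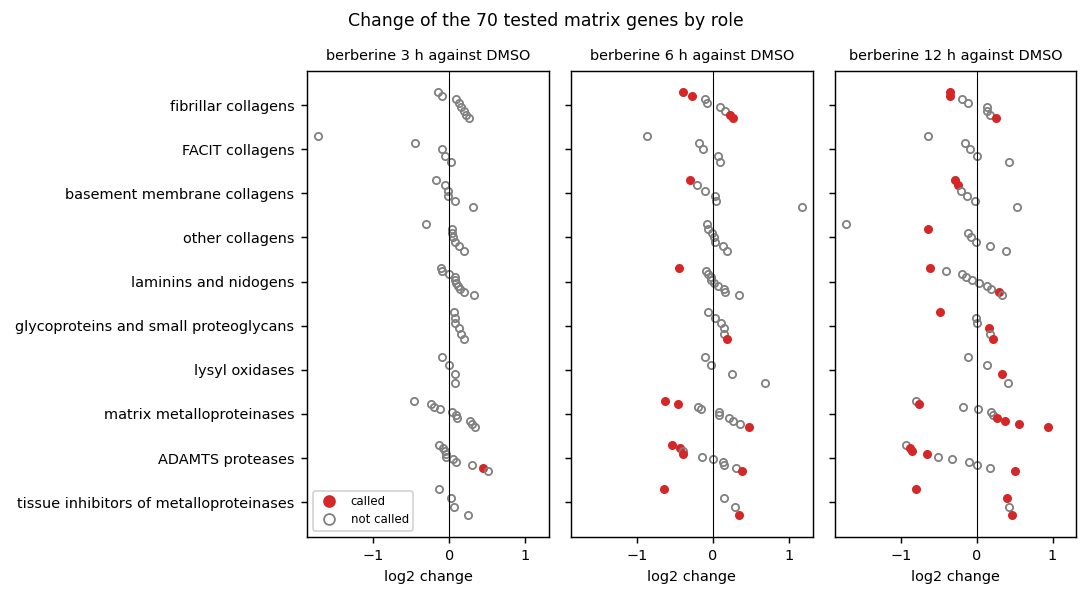
Log2 change against DMSO (x axis) of each of the 70 tested matrix genes, by role (y axis), after 3 h, 6 h and 12 h of berberine. Filled points are called genes, 1 at 3 h, 16 at 6 h and 24 at 12 h, and open points are not called. The far open points are genes near the detection threshold.

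Marker genes were examined beside these values. Of 13 tested adipocyte markers, 8 fell and 1 (Lpl, lipoprotein lipase, log2 change 0.32) rose at 12 h, beside 14.6% and 13.7% of all genes. The largest fall at 12 h was that of Cidec, a lipid droplet protein (-1.44 ± 0.07). At 6 h, 4 of these markers rose and 4 fell, beside 7.24% and 6.98% of all genes. Adipoq (0.33) and Fabp4 (0.29) were among those higher at 6 h, and were not called at 12 h (0.25 and 0.21). Of 11 tested fibroblast and preadipocyte markers, 3 rose at 12 h (Acta2 by 0.55, Twist2 by 0.37 and Vim by 0.27) and Pdgfra fell by 0.28. Over all genes 13.7% rose and 14.6% fell at 12 h. The summed linear signal of the adipocyte markers was 207587 to 226205 at 12 h and 201601 to 250615 with DMSO, and that of the fibroblast markers 82342 to 95297 at 12 h and 79676 to 87846 with DMSO. Of 10 macrophage markers 4 were tested, and Cd14 rose at 6 h (0.34) and 12 h (0.38), while Adgre1, Itgam and Ptprc were below the filter. Of 10 endothelial markers 2 were tested, and Pecam1 and Cdh5 were below the filter. The part of cell composition in the changes below was not tested, and in bulk RNA fewer cells of a type and less RNA per cell cannot be told apart.

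The fibrillar collagens changed by small amounts, and the 2 chains of type I collagen went in opposite directions. Of 8 tested genes, Col1a2 rose and Col1a1 and Col11a1 fell at 12 h, while 13.7% of all genes rose and 14.6% fell. Col1a1, the chain present in 2 copies in type I collagen, had log2 signals of 11.05, 10.75 and 10.99 at 12 h, against 11.23, 11.41 and 11.19 with DMSO. The groups did not overlap, and the change was -0.35 ± 0.08 (adjusted p = 0.00344), after -0.28 ± 0.08 at 6 h (adjusted p = 0.0261). The call at 6 h was lost without DMSO replicate 2 or berberine 6 h replicates 2 or 3 (adjusted p = 0.0697 to 0.111). A dimmer Col1a1 probe set changed by 0.03 at 12 h and was not called. Col1a2, its partner chain, had 15.13, 15.11 and 15.07 at 12 h, against 14.78, 14.68 and 15.10 with DMSO. DMSO replicate 3 lay within the berberine range, while the other DMSO arrays lay below it. The change was 0.25 ± 0.08 (adjusted p = 0.0297), but without DMSO replicate 2 it was 0.17 (adjusted p = 0.158). The call was also lost without DMSO replicate 1 or berberine 12 h replicates 1 or 2 (adjusted p = 0.0735 to 0.113), and a dimmer Col1a2 probe set changed by 0.02. After quantile normalization it was 0.05 (adjusted p = 0.51).

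Col11a1, a minor chain of the fibril core, changed by -0.35 ± 0.13 at 12 h (adjusted p = 0.0484). Its DMSO replicate 2, at 9.55, stood above the other DMSO arrays at 9.14 and 9.01, and without it the change was -0.19 (adjusted p = 0.273). The call was lost in 11 of the 12 fits that left out 1 array. Col5a3, a chain of type V collagen, was not called against DMSO but was lower at 12 h than at 3 h (-0.28, adjusted p = 0.0165). That call was lost without berberine 3 h replicate 3 or berberine 12 h replicates 1 or 2 (adjusted p = 0.0647 to 0.0719), with median centring (0.0502) and without the intensity trend (0.0507).

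For Col3a1 and Col5a2, neighbours on chromosome 1 whose products join type I collagen in fibrils, the probe sets disagreed. The probe set used for Col3a1 had log2 signals of 15.25, 15.23 and 15.17 at 12 h, against 14.94, 14.92 and 15.25 with DMSO, and the groups overlapped. Its change was 0.23 ± 0.08 at 6 h (adjusted p = 0.0476), where berberine arrays lay within or above the DMSO range, and 0.18 at 12 h, not called. The call at 6 h was lost in 10 of the 12 fits that left out 1 array (adjusted p = 0.0532 to 0.197). The other Col3a1 probe set had 12.48, 12.46 and 12.52 at 12 h, against 13.01, 13.16 and 13.01 with DMSO. In a fit over all 25053 kept probe sets it fell by 0.34 at 6 h and by 0.58 ± 0.06 at 12 h, with no overlap. In that fit the Col3a1 probe set used here was not called at 6 h (adjusted p = 0.0536). Col5a2 behaved alike, with 0.13 ± 0.06 in the probe set used and -0.41 ± 0.08 in the other (adjusted p = 0.000933) at 12 h. The direction of Col3a1 and Col5a2 therefore depends on the probe set.

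**Figure D2:**
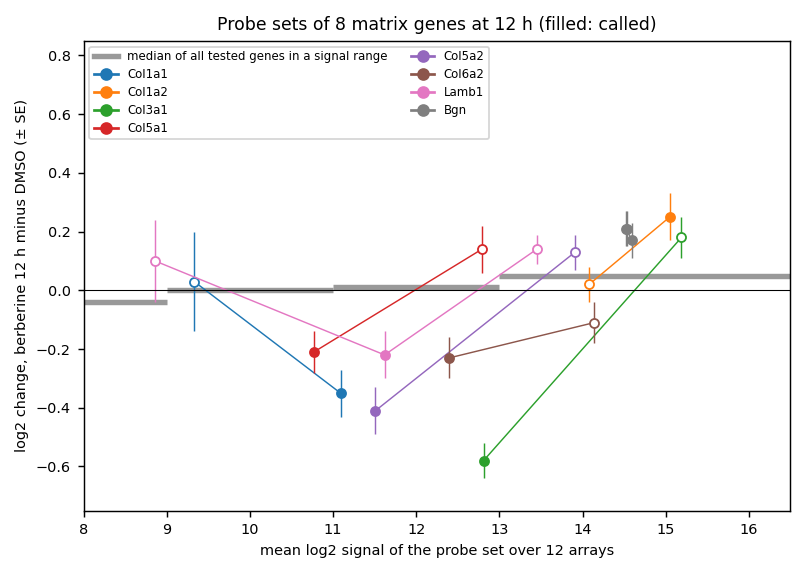
Log2 change at 12 h of berberine against DMSO (y axis, ± SE) against the mean log2 signal of each kept probe set over 12 arrays (x axis), for 8 matrix genes with several kept probe sets. Lines join probe sets of a gene, filled points are called in the fit over all kept probe sets, and grey bars are the median change of all tested genes in a range of signals. Col3a1, Col5a1, Col5a2 and Lamb1 have a called fall in a dimmer probe set and an uncalled positive change in the brightest one.

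Such disagreement was not limited to these genes. Of the 37 matrix genes with several kept probe sets, 19, 19 and 13 had opposite signs among them at 3, 6 and 12 h. For 0, 4 and 8 of these at least 1 of the sets was called. Probe sets near the threshold are included, and the matching share over all genes was not counted. At 12 h Col5a1 changed by 0.14 in the probe set used and by -0.21 in another that was called. Lamb1, the laminin beta 1 chain, changed by 0.14 and -0.22. In contrast, all 3 probe sets of Bgn and of Mmp14 and both of Mmp2 were called higher. Over the 526 tested genes with a mean log2 signal of at least 13, the median change was 0.04, 0.10 and 0.05 at 3, 6 and 12 h. Over the 15 matrix genes among them it was 0.13, 0.15 and 0.13. For all tested genes with a mean under 7, from 7 to 9, 9 to 11 and 11 to 13, the median at 12 h was -0.02, -0.04, -0.00 and 0.01. After quantile normalization no call of Col1a2, Col3a1, Bgn or Postn at 6 h or 12 h was kept. The part of brightness in their small rises was not tested.

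The basement membrane showed 1 clear change, in nidogen-2. Nid2, which links laminin to type IV collagen, had log2 signals of 9.70, 9.58 and 9.82 at 12 h, against 10.26, 10.32 and 10.35 with DMSO. It fell by 0.61 ± 0.08 (1.53-fold, adjusted p = 2.32e-05) at 12 h and by 0.45 ± 0.08 (adjusted p = 0.00127) at 6 h, where its arrays, at 9.88, 9.92 and 9.77, also lay below every DMSO array. Nid1, the gene of the related nidogen-1, had 13.63, 13.53 and 13.63 at 12 h, against 13.61, 13.68 and 13.69 with DMSO. The groups overlapped (log2 change -0.06 ± 0.06, adjusted p = 0.494).

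The main type IV collagen chains moved little. Col4a1 and Col4a2, adjacent genes whose chains form 1 trimer, had means of 13.94 and 12.90 at 12 h, against 13.96 and 13.03 with DMSO. Of the 6 tested basement membrane collagens, Col4a5 (-0.28, adjusted p = 0.0298) and Col18a1 (-0.25, adjusted p = 0.0191), the gene whose product releases endostatin, fell at 12 h. Over all genes 14.6% fell. Col18a1 had 10.25, 10.40 and 10.41 at 12 h, against 10.65, 10.51 and 10.66 with DMSO, with no overlap, and had fallen by 0.30 at 6 h. The Col4a5 call was lost without DMSO replicates 1 or 2 or berberine 12 h replicates 1 or 2 (adjusted p = 0.0614 to 0.15). The Col18a1 call at 12 h was lost without DMSO replicates 1 or 3 or berberine 12 h replicate 1 (adjusted p = 0.0681 to 0.0938), and at 6 h without DMSO replicate 1 (0.0581). Col4a6, the neighbour of Col4a5, lay near the detection threshold, between 2.49 and 6.33 over the 12 arrays.

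Among 10 tested laminin and nidogen genes, Lamc1, the gamma 1 chain found in most laminins, rose by 0.29 ± 0.09 at 12 h (adjusted p = 0.0279). Its arrays read 10.31, 10.12 and 10.33 at 12 h, against 9.89, 9.98 and 10.01 with DMSO, and the call was lost without DMSO replicate 1 or berberine 12 h replicates 1 or 3 (adjusted p = 0.0917 to 0.102). Lamb1 (0.14 ± 0.05) and Lama4 (0.03), whose chains join gamma 1 in laminins of fat and vessels, were not called at 12 h. Among the remaining collagens, Col8a1, a network-forming collagen, fell by 0.64 ± 0.22 at 12 h (adjusted p = 0.0386). Berberine 12 h replicate 2 lay well below the other 12 h arrays, which at 7.76 and 7.85 overlapped or neared the DMSO arrays at 8.18, 8.52 and 7.84. The change was -0.38 (adjusted p = 0.214) without it, and the call was also lost without DMSO replicates 1 or 2 (adjusted p = 0.0877 and 0.172). A second Col8a1 probe set changed by 0.21 and was not called. No change of type VI collagen was called, with log2 changes of -0.08, -0.11 and -0.01 for Col6a1, Col6a2 and Col6a3 at 12 h. None of the 5 tested FACIT collagens, which sit on fibril surfaces, was called by limma at 12 h, and 0 had an unadjusted p under 0.05. Over all genes these shares were 28.2% and 38.0%.

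Of the 6 glycoproteins and small proteoglycans, Bgn and Postn rose and Lum fell at 12 h, beside 13.7% and 14.6% of all genes. Lum encodes lumican, a small proteoglycan that binds collagen fibrils and spaces them. Its log2 signals were 11.83, 11.95 and 11.88 at 12 h, against 12.44, 12.51 and 12.14 with DMSO. The fall of 0.48 ± 0.11 (1.39-fold, adjusted p = 0.00241) appeared late, since at 6 h the arrays read 12.32, 12.70 and 12.36 and overlapped DMSO. The step between 6 h and 12 h was itself called (12 h minus 6 h -0.57, adjusted p = 0.00335). Dcn, the decorin gene beside Lum on chromosome 10, had 14.07, 13.99 and 13.92 at 12 h, against 13.61, 14.04 and 13.83 with DMSO. The groups overlapped and the change of 0.17 ± 0.08 was not called.

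Bgn, biglycan, had 14.64, 14.62 and 14.56 at 12 h, against 14.31, 14.39 and 14.48 with DMSO (log2 change 0.21 ± 0.06, adjusted p = 0.00914, or 0.0568 without DMSO replicate 1). Postn, the matricellular protein periostin, had 14.18, 14.10 and 14.20 at 12 h, against 13.96 to 14.05 with DMSO. Its change was 0.16 ± 0.06 (adjusted p = 0.0411), and the call was lost in 6 of the 12 fits that left out 1 array (adjusted p = 0.0516 to 0.14). Neither group pair overlapped. Fn1, fibronectin, and Sparc, a collagen-binding glycoprotein, changed by 0.01 and -0.01 at 12 h and were not called. Of the 4 lysyl oxidases, which cross-link collagen and elastin, Loxl3 rose by 0.33 ± 0.11 at 12 h (adjusted p = 0.0402). The call was lost without any 1 of the 3 DMSO arrays or without berberine 12 h replicates 1 or 3 (adjusted p = 0.0636 to 0.147). Lox itself changed by 0.13 ± 0.07 and Loxl1 by -0.11 ± 0.07 in the probe sets used, neither called. A dimmer Lox probe set had 11.31, 11.42 and 11.28 with DMSO. It read 11.04, 10.91 and 10.93 at 6 h, below every DMSO array, and 11.27, 11.86 and 11.82 at 12 h, overlapping DMSO.

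**Figure D3:**
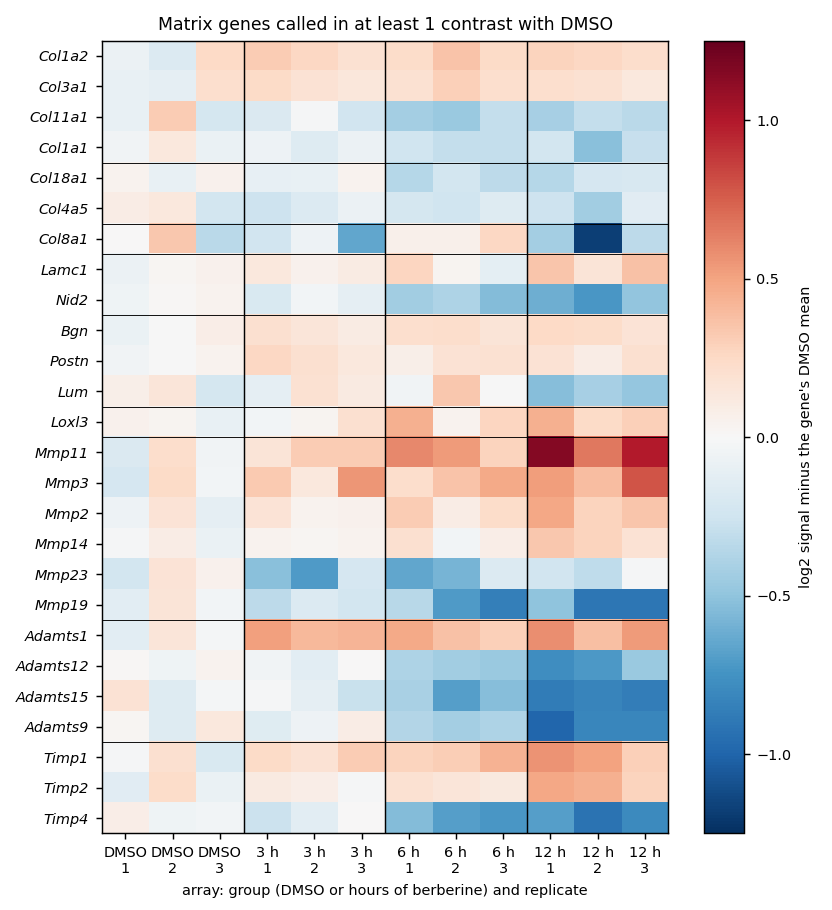
Log2 signal minus the gene's DMSO mean (colour) for the 26 matrix genes called in at least 1 contrast with DMSO (rows, grouped by role) on the 12 arrays (columns). Mmp11 is highest and Adamts9, Adamts15 and Mmp19 are low in the 12 h columns, and DMSO replicate 2 is the highest DMSO array for Mmp2, Mmp3, Mmp11, Mmp14, Timp1 and Timp2.

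Promoter windows from 250 bases before to 50 after the annotated start, from RefSeq on GRCm38.p6, were found for 66 of the 101 matrix genes. They are shown for Mmp11, Mmp3 and Timp1, which rose, and for Adamts9, the fall with the smallest adjusted p, because these genes carry the opposite responses. Each is written 5′ to 3′ on the gene's strand, and capitals mark matches to TGANTCA (the AP-1 core), ACGTG (the core of the hypoxia response element), TATAAA or TGATGNAA (a composite of ATF4 and CEBP), searched on both strands. The Adamts9 window belongs to the start that the promoter table lists, which lies inside the annotated gene span, downstream of its outermost 5′ end. The other 3 windows lie at the ends of their genes.
Mmp11, chr10:75932453-75932752, minus strand: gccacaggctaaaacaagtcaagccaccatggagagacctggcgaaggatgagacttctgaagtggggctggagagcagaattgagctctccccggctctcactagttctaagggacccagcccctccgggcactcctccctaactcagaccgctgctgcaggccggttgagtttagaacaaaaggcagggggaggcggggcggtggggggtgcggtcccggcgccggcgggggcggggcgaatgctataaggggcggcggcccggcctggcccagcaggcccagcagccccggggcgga
Mmp3, chr9:7445572-7445871, plus strand: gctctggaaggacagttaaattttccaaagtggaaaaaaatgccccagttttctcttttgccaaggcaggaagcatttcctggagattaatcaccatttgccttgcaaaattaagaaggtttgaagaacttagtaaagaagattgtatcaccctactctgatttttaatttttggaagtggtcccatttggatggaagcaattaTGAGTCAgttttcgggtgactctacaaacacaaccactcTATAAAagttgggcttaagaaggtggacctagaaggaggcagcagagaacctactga
Timp1, chrX:20869916-20870215, plus strand: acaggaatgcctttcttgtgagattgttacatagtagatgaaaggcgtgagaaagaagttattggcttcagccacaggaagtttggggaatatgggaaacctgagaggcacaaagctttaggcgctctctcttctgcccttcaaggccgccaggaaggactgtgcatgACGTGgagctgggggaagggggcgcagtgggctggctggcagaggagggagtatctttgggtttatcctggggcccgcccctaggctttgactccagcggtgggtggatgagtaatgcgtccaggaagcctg
Adamts9, chr6:92943485-92943784, minus strand: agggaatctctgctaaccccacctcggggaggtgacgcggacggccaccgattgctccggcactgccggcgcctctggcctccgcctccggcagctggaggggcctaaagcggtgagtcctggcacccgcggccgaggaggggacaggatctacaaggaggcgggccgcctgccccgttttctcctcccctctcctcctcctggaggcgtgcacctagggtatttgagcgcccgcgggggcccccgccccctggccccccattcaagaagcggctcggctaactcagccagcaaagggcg

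The Mmp3 window holds TGAGTCA starting 46 bases before the annotated start and TATAAA starting 7 bases before it. The Timp1 window holds ACGTG starting 82 bases before the start, and the windows of Mmp11 and Adamts9 hold none of the 4 motifs. Over all 27025 windows of this length, 7.93% held TGANTCA, 19.7% ACGTG, 14.2% TATAAA and 4.06% TGATGNAA. Of the 9 matrix genes that rose at 12 h and had a window, 1 (Mmp3) held TGANTCA, 3 (Col1a2, Mmp14 and Timp1) held ACGTG and 2 (Mmp3 and Adamts1) held TATAAA. None of the 7 that fell and had a window held any of the 4. These are matches of letters in short windows and are given as a description.

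The matrix metalloproteinases gave the largest rise among the matrix genes called. Of 10 tested, 4 rose and 1 fell at 12 h, beside 13.7% and 14.6% of all genes. Mmp11, stromelysin-3, which is activated inside the cell by furin, had log2 signals of 10.88, 10.39 and 10.72 at 12 h, against 9.55, 9.95 and 9.69 with DMSO. Every 12 h array lay above every DMSO array, and the rise was 0.94 ± 0.12 (1.91-fold, adjusted p = 2.03e-05). At 6 h it read 10.33, 10.26 and 10.01, a rise of 0.47 ± 0.12 (adjusted p = 0.0159). That call was lost without DMSO replicate 1 or berberine 6 h replicates 1 or 2 (adjusted p = 0.0609 to 0.0864). The step between 6 h and 12 h was called too (12 h minus 6 h 0.46, adjusted p = 0.0354), and was lost without berberine 6 h replicates 2 or 3 or berberine 12 h replicates 1 or 3 (adjusted p = 0.0745 to 0.153).

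Mmp3, stromelysin-1, which cuts many matrix proteins and activates other MMPs, had 10.94, 10.80 and 11.20 at 12 h, against 10.21, 10.66 and 10.38 with DMSO. It rose by 0.56 ± 0.12 (1.47-fold, adjusted p = 0.00241), with no overlap. Its promoter window, printed before, is the 1 among those shown with an AP-1 core. At 3 h and 6 h its changes were 0.34 and 0.35, with overlapping groups and no call. Mmp13, a collagenase gene of the same cluster on chromosome 9, changed by 0.21 ± 0.11 at 12 h and was not called. Its window, not shown, also holds TGANTCA. Of the 45 tested matrix genes with a window 6.67% hold it, beside 7.93% of all windows.

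Mmp2, Mmp14 and Timp2 act together in textbook models, in which membrane-bound Mmp14 with Timp2 as adaptor activates pro-Mmp2 at the cell surface. All 3 rose at 12 h. Mmp2, gelatinase A, had log2 signals of 13.80, 13.60 and 13.67, against 13.26, 13.49 and 13.21 with DMSO (0.37 ± 0.08, 1.29-fold, adjusted p = 0.00175). Mmp14 had 12.18, 12.12 and 12.02 at 12 h, against 11.83, 11.93 and 11.76 with DMSO (0.27 ± 0.07, adjusted p = 0.00648). Neither gene's groups overlapped at 12 h, and neither gene was called at 3 h or 6 h.

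Mmp19, a secreted protease that cuts basement membrane proteins, went the other way. It had 8.60, 8.20 and 8.20 at 12 h, against 8.97, 9.26 and 9.07 with DMSO, a fall of 0.76 ± 0.14 (1.70-fold, adjusted p = 0.000659), after a fall of 0.63 ± 0.14 at 6 h (adjusted p = 0.00696). Mmp23, a membrane-anchored member, was called at 6 h (-0.46, adjusted p = 0.0362) with overlapping groups, and was not called at 12 h (-0.18). The call at 6 h was lost without DMSO replicates 2 or 3 or berberine 6 h replicates 1 or 2 (adjusted p = 0.0957 to 0.144). With the mean of the Mmp23 probe sets the change at 6 h was -0.22 (adjusted p = 0.282). Mmp9, gelatinase B, ranged from 4.67 to 7.60 over the 12 arrays and was not called.

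**Figure D4:**
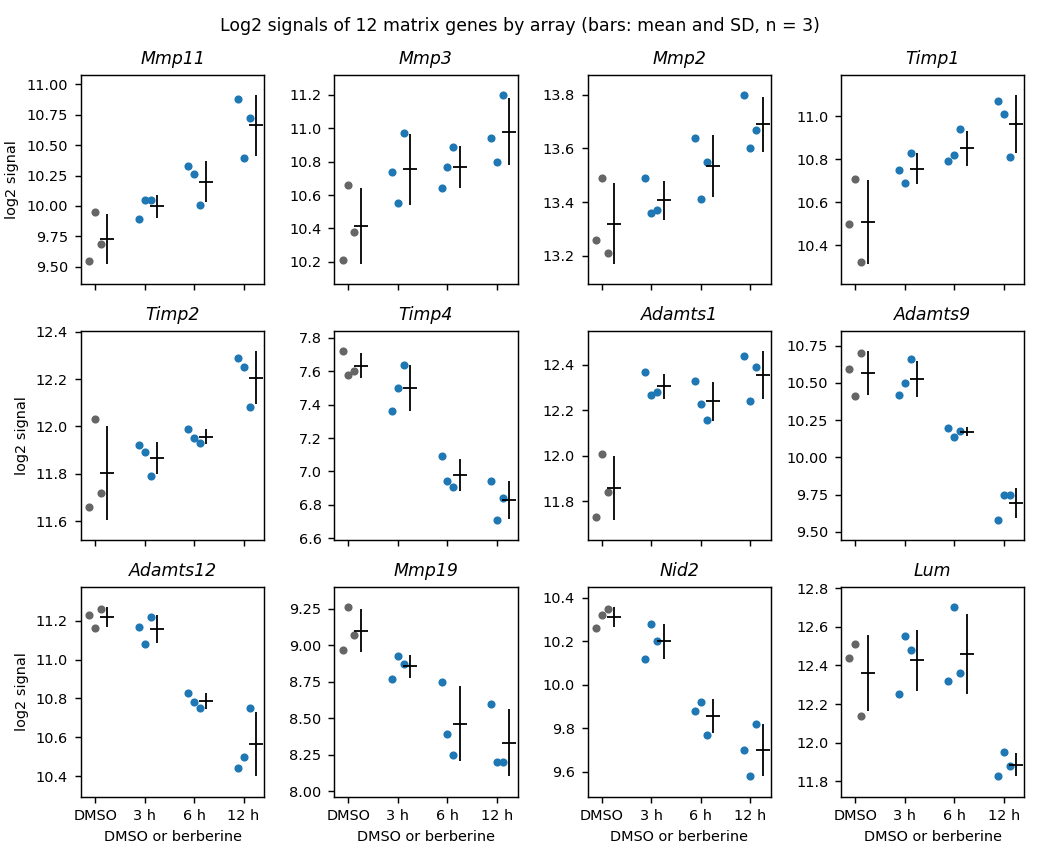
Log2 signal (y axis) of 12 matrix genes on each array (points), for DMSO and 3 h, 6 h and 12 h of berberine (x axis), with the mean and SD of each group (n = 3). Adamts1 is already higher at 3 h, Adamts9, Adamts12, Nid2 and Timp4 are lower from 6 h, and Lum is lower at 12 h.

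The ADAMTS proteases held the earliest rise called and, in Adamts9 and Adamts12, the falls with the smallest adjusted p-values at 12 h among the matrix genes. Adamts1, which cuts the large proteoglycans versican and aggrecan, had log2 signals of 12.37, 12.27 and 12.28 at 3 h, against 11.73, 12.01 and 11.84 with DMSO. It rose by 0.45 ± 0.08 (1.36-fold, adjusted p = 0.0032), the matrix gene called at 3 h. It remained higher by 0.38 ± 0.08 at 6 h and by 0.50 ± 0.08 at 12 h (adjusted p = 0.00241 and 7.82e-05), with no overlap at any time. Its neighbour on chromosome 16, Adamts5, another aggrecan-cutting member, changed by 0.17 ± 0.10 at 12 h in the probe set used and was not called. Another Adamts5 probe set was called (0.41 ± 0.08) and yet another was not (-0.16 ± 0.11).

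Adamts9, a protease of versican and aggrecan, had 9.58, 9.75 and 9.75 at 12 h, against 10.59, 10.41 and 10.70 with DMSO. It fell by 0.88 ± 0.09 (1.83-fold, adjusted p = 9.51e-07) at 12 h and by 0.39 ± 0.09 at 6 h (adjusted p = 0.00561). At 3 h it read 10.42, 10.50 and 10.66, within the DMSO range. A second Adamts9 probe set fell by 1.31 ± 0.25 at 12 h, and the third, near the threshold, was not called (-0.26 ± 0.39).

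Adamts15, another proteoglycan-cutting member, had 7.95, 8.00 and 7.96 at 12 h, against 9.01, 8.67 and 8.80 with DMSO. It fell by 0.85 ± 0.13 (1.81-fold, adjusted p = 7.24e-05), and at 6 h by 0.54 ± 0.13 (adjusted p = 0.00876, or 0.0581 without DMSO replicate 1). Adamts12, which cuts the cartilage glycoprotein COMP, had 10.44, 10.50 and 10.75 at 12 h, against 11.23, 11.16 and 11.26 with DMSO. It fell by 0.65 ± 0.08 (1.57-fold, adjusted p = 6.57e-06), and by 0.43 ± 0.08 at 6 h (adjusted p = 0.00127). All 3 of these genes had no overlap with DMSO at 6 h or at 12 h. The other 6 of the 10 tested ADAMTS genes were not called at 12 h, and 1 rose and 3 fell, beside 13.7% and 14.6% of all genes.

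The 4 TIMPs diverged. Timp1, a secreted inhibitor of most MMPs, had log2 signals of 11.07, 11.01 and 10.81 at 12 h, against 10.50, 10.71 and 10.32 with DMSO. It rose by 0.46 ± 0.09 (1.37-fold, adjusted p = 0.00124), and by 0.34 ± 0.09 at 6 h (adjusted p = 0.02). The call at 6 h was lost without DMSO replicates 1 or 3 or berberine 6 h replicate 3 (adjusted p = 0.0629 to 0.0986). Timp2 had 12.29, 12.25 and 12.08 at 12 h, against 11.66, 12.03 and 11.72 with DMSO (0.40 ± 0.08, 1.32-fold, adjusted p = 0.0017), without overlap. Of its other 4 probe sets 1 was called higher (0.37 ± 0.10) and 3 were not called, and with the mean of all its probe sets the change was 0.15 (adjusted p = 0.38).

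Timp4, an inhibitor with high expression in heart and fat, had 6.94, 6.71 and 6.84 at 12 h, against 7.72, 7.58 and 7.60 with DMSO. It fell by 0.80 ± 0.18 (1.75-fold, adjusted p = 0.00314), and by 0.65 ± 0.18 at 6 h (adjusted p = 0.0241). The call at 6 h was lost without any 1 of the 3 DMSO arrays or berberine 6 h replicates 2 or 3 (adjusted p = 0.0509 to 0.0935). A second Timp4 probe set was not called at 12 h (-0.15 ± 0.34). Timp3, the matrix-bound inhibitor, lay at 5.51 to 6.46 over the 12 arrays, around the threshold, and its change of 0.43 ± 0.35 was not called.

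The berberine times were also compared with each other, and these comparisons share berberine arrays. From 3 h to 6 h, 3 matrix genes were called, all lower, against 2.34% of all genes, 1.19% higher and 1.15% lower. These were Adamts12 (-0.37, adjusted p = 0.0203), Adamts9 (-0.36, adjusted p = 0.0383) and Nid2 (-0.34, adjusted p = 0.0325), and these calls were lost in 4, 7 and 6 of the 12 fits that left out 1 array. From 6 h to 12 h, 3 were called, Mmp11 higher and Lum and Adamts9 lower, against 5.69% of all genes, 2.50% higher and 3.18% lower. Between 3 h and 12 h, 13 were called, 4 higher and 9 lower, against 17.7% of all genes, 8.01% higher and 9.71% lower. The higher ones were Mmp11 (0.67), Timp2 (0.33), Mmp2 (0.28) and Mmp14 (0.24), and the lower ones were led by Adamts9 (-0.84), Adamts15 (-0.72) and Timp4 (-0.67). Of these 13 calls 7 were kept whichever array was left out.

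The enzymes that mature collagen are a separate list, and of its 21 tested genes 6 fell and 0 rose at 12 h by limma, with 7 lower and 1 higher at an unadjusted p under 0.05. Over all genes 14.6% fell and 13.7% rose at 12 h. P4ha1, the prolyl hydroxylase subunit that stabilises the collagen helix, fell at every time, by 0.40 ± 0.08 at 3 h, 0.76 ± 0.08 at 6 h and 0.87 ± 0.08 at 12 h (1.82-fold, adjusted p = 4.48e-07). P4ha2, a second such subunit, fell by 0.53 and the lysyl hydroxylase gene Plod1 by 0.58 at 12 h. Fkbp14, a prolyl isomerase of the endoplasmic reticulum, fell by 0.56. The list's median change was -0.08 at 12 h, beside -0.01 over all genes.

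Of 24 tested further proteoglycans and matricellular proteins, 2 rose and 4 fell at 12 h. Prelp, a leucine-rich proteoglycan related to lumican, fell by 1.64 ± 0.11 (3.12-fold, adjusted p = 1.55e-08), and Ogn, osteoglycin, by 0.42. Thbs1, thrombospondin-1, rose by 0.74 ± 0.11 at 3 h and by 1.02 ± 0.11 at 12 h (2.03-fold, adjusted p = 2.44e-06), and Ccn1 by 1.04 ± 0.20 at 6 h. Of 12 tested elastic fibre genes 2 fell, Emilin1 (-0.61) and Fbln5 (-0.25). Of 16 tested matrix receptors 2 fell, the laminin receptor genes Itga6 (-0.41) and Dag1 (-0.35). In these lists the shares called at 12 h stood beside 28.2% for all genes.

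Among 20 other extracellular proteases and inhibitors, 3 rose and 4 fell at 12 h, beside 13.7% and 14.6% of all genes. Plaur, the urokinase receptor, rose by 1.17 ± 0.30, and the lysosomal protease gene Ctsl by 0.52. Adam12 (-1.02 ± 0.09), Adam19 (-0.79) and the secreted serine protease gene Htra3 (adjusted p = 0.000166) were among those that fell. Of 21 genes of TGF-beta and BMP signalling, a main route to matrix gene expression, 5 rose and 4 fell, beside the same shares of all genes. They include rises of Inhba (1.06 ± 0.35) and Smad1 (0.63) and falls of Smad6 (-1.23 ± 0.16), Id1 (-0.99) and Tgfb2 (-0.90).

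Of 18 tested genes on a list of AP-1 and other transcriptional regulators of matrix genes, 3 rose at 3 h, beside 1.09% of all genes. At 12 h, 5 rose and 1 fell, beside 13.7% and 14.6% of all genes. Jun rose by 0.61 ± 0.07 at 3 h (adjusted p = 0.000178) and by 0.33 at 6 h, and was not called at 12 h (0.14). Atf3, a stress-induced member, rose by 3.23 on the log2 scale at 12 h (adjusted p = 9.62e-09). Ets2 rose by 1.42 ± 0.08 at 12 h and Jund by 0.74, and Fosl1 fell by 1.12 ± 0.36.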

How the data were processed

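The authors deposited log2 signals, 1 column per array, for 45101 probe sets, 64 of them controls. Per the submitters' processing notes they were made with MAS5, whose version is not given in the sources used here. Back on the linear scale and trimmed by 2% at either end, the array with the lowest mean averaged 500.004. A single factor per array cannot remove a bias that varies with brightness, and the log2 values of dim probe sets scatter widely.

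A log2 signal of 5.77 (54.6 in linear units), the median over non-control probe sets, served as the detection threshold. Probe sets at or above it on 3 or more of the 12 arrays were used, 25053 in all. Of several such sets for 1 gene the brightest on average was taken (one ending in _x_at only where there was no other), a choice that 37 matrix genes needed. Symbols came from the platform annotation. Fbn1, named in the set's definition, had no probe set with a single symbol there.

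The comparisons used limma 3.58.1 (R 4.3.3), with 1 mean per group over the 12 arrays, a prior variance that follows intensity, 8 residual degrees of freedom and two-sided p-values, and Benjamini-Hochberg adjustment over all genes tested. The number of arrays limits the precision. The fit was tested on simulated data. Folds are ratios of geometric mean signals. The matrix genes, the 11 context and marker lists (206 genes, 162 tested) and the tests were chosen with earlier results of these data known. Named genes were the called members with the largest changes in each contrast, the brightest members of each role, fixed pairs of partner genes, members whose probe sets disagreed, and up to 4 called genes per list. Some genes the rule allows were left out for space.

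Alternatives were quantile normalization, median centring, no intensity trend, only the groups compared, the mean of probe sets, other filters, a floor at the threshold, the replicate number as a block, and leaving out each array. Promoter sequences are RefSeq's; 8 genes with 2 starts were shown by the first listed. Plots were made in matplotlib 3.10.9 under Python 3.11.15.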

Additional observations from a re-analysis of the deposited data

Results flagged for a closer look

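The berberine groups are time points under 1 treatment, and 19 differences between them were called by limma for matrix genes, each a test of the difference itself. From 3 h to 6 h the log2 change was -0.37 for Adamts12 (adjusted p = 0.0203), -0.36 for Adamts9 (0.0383) and -0.34 for Nid2 (0.0325). From 6 h to 12 h it was 0.46 for Mmp11 (adjusted p = 0.0354), -0.57 for Lum (0.00335) and -0.48 for Adamts9 (0.00299). From 3 h to 12 h it was 0.67 for Mmp11 (adjusted p = 0.00106), 0.33 for Timp2 (0.0098), 0.28 for Mmp2 (0.0177) and 0.24 for Mmp14 (0.0214) among the rises. Among the falls between these times it was -0.84 for Adamts9 (adjusted p = 3.56e-06), -0.72 for Adamts15 (0.000725), -0.67 for Timp4 (0.0162), -0.59 for Adamts12 (3.82e-05), -0.54 for Lum (0.00154), -0.52 for Mmp19 (0.0174), -0.50 for Nid2 (0.000331), -0.28 for Col5a3 (0.0165) and -0.25 for Col1a1 (0.0405). Of these 13 calls between 3 h and 12 h, 7 were kept whichever array was left out. Mmp14 was lost without any 1 berberine 3 h array or without berberine 12 h replicates 1 or 2 (adjusted p = 0.0504 to 0.0931), and Mmp2 without berberine 3 h replicates 2 or 3 or berberine 12 h replicate 1 (0.0612 to 0.0922). Mmp19 was lost without berberine 3 h replicates 2 or 3 or berberine 12 h replicates 2 or 3 (adjusted p = 0.0515 to 0.074). It was also lost with the mean of its probe sets (-0.30, adjusted p = 0.262). Col5a3 was lost without berberine 3 h replicate 3 or berberine 12 h replicates 1 or 2 (adjusted p = 0.0647 to 0.0719), and Timp4 without berberine 3 h replicate 3 (0.0709) or berberine 12 h replicate 2 (0.058). Col1a1 was lost without any 1 berberine 3 h array (adjusted p = 0.0562 to 0.12) or without berberine 12 h replicate 2 (-0.16, 0.216). Timp2 held in these fits but lost its call with the mean of its probe sets (0.06, adjusted p = 0.806) and when no intensity trend was fitted (0.0545). The 3 calls between 3 h and 6 h, and that of Mmp11 between 6 h and 12 h, were also lost without single arrays. With 3 arrays per group, single arrays were not tested as outliers.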

How the results depend on the processing

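Of the 24 calls at 12 h, 12 held in every alternative (Mmp11, Mmp3, Adamts1, Timp1, Mmp2, Mmp14, Adamts9, Adamts15, Mmp19, Adamts12, Nid2 and Lum), as did 3 of the 16 at 6 h (Adamts1, Nid2 and Adamts12), while the 1 at 3 h, Adamts1, was lost without the intensity trend (adjusted p = 0.0586). Without the intensity trend the counts of matrix genes called were 0 at 3 h, 8 at 6 h and 10 in the F test, 0 for 6 h against 3 h and 1 for 12 h against 6 h. With the mean of probe sets they were 7 at 6 h and 1 for 12 h against 6 h. Quantile normalization and median centring each gave 1 for 6 h against 3 h. Leaving out 1 array gave 1 to 5 at 3 h, 7 to 16 at 6 h, 15 to 25 at 12 h, 0 to 3 for 6 h against 3 h, 2 to 5 for 12 h against 6 h, 7 to 15 for 12 h against 3 h and 14 to 25 in the F test. The lowest counts at 6 h and 12 h came without DMSO replicate 1, and the 5 at 3 h without DMSO replicate 3. Col3a1 reversed at 6 h after quantile normalization (-0.05) and with the mean of probe sets (-0.05), and at 12 h with the mean of probe sets (-0.20, past the threshold), where the dimmer probe set that fell enters the mean. The causes of these reversals were not tested. Over all 43 named matrix genes, 167 alternative values in the contrasts with DMSO lost a call without a change of direction and 22 gained one.

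Correlations of the arrays' deviations from their group means, over all tested genes, showed no pairing by replicate number. They lay between -0.037 and 0.03 for 18 same-numbered pairs of different groups, and between -0.046 and 0.038 for 36 differently numbered pairs. Dim genes, which scatter widely, weigh most in them, and the labels do not tell whether the numbers pair cultures. With the replicate block 2 matrix genes were called at 3 h, 15 at 6 h, 22 at 12 h and 18 in the F test.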
